A study of Mus musculus with 12 samples.

Results

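Serpins are a family of proteins that mostly inhibit serine proteases, and some inhibit cysteine proteases. Members were taken as the rows of the gene count table whose symbol has the form Serpin, a clade letter from a to i and a number, which gave 35 of 14533 listed genes. By clade these were 16 clade b genes, 8 genes of the Serpina3 cluster, 2 other clade a genes (Serpina9 and Serpina12) and 9 genes of clades c to i. The mouse gene annotation (GENCODE M21, GRCm38) holds 61 protein-coding serpin genes, and 33 of the 35 members are among them. The same annotation types Serpinb10 as a polymorphic pseudogene and Serpina3h as a transcribed pseudogene.

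A serpin presents an exposed reactive centre loop to its target. The protease cleaves the loop, the serpin refolds and the protease is trapped, so each inhibitor molecule is used once. Clade b serpins lack a classical secretion signal and act mainly inside cells, and many of them are characteristic of squamous epithelium such as the epidermis. Clade a serpins and those of clades c to g are mostly secreted, and several of them control clotting, fibrinolysis and complement.

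The data are RNA-seq counts from dorsal epidermis scraped from frozen skin of 12 untreated C57BL/6 mice, 1 library per mouse, and the study compared mice with and without epidermal Pparg, a lipid-activated nuclear receptor. All 12 mice carried Pparg flox/flox, and WT mice (n = 6) were Cre-/-. Pparg-/-epi mice (n = 6) were Cre+/-, with Cre driven by the Cytokeratin14 promoter. This promoter is active in basal keratinocytes of the epidermis and the hair follicle. Skin cells that do not arise from these keratinocytes kept an intact floxed gene. Mice were 8 to 13 weeks old, with 3 females and 3 males among WT mice and 4 females and 2 males among Pparg-/-epi mice. The scraping went down to the vascular bed below the epidermis and so includes some superficial dermis. In such bulk samples fewer cells of a type and less RNA per cell cannot be told apart.

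Libraries held 10120840 to 18851255 counts, and 3 counts corresponded to 0.159 to 0.296 CPM (counts scaled by library size). Basal and suprabasal keratinocyte markers, which define the labelled tissue, were abundant in all mice, with summed levels of 5164 to 12088 CPM and 9420 to 37045 CPM. Both sums were lowest in WT replicate 2, and the suprabasal sum of the other WT mice was 24314 to 32109 CPM. The part of this in members that were low in WT replicate 2 was not tested. Other cell types varied between mice: the 7 fibroblast markers, all listed, summed to 1022 to 34614 CPM in the WT mice and 5363 to 11271 CPM in the Pparg-/-epi mice, highest in WT replicate 1, and the 5 skeletal muscle markers reached 9059 CPM in WT replicate 5 against at most 354 CPM in any other mouse. Pparg itself had between 5 and 269 counts among WT mice and between 16 and 107 counts among Pparg-/-epi mice (log2 fold change -0.10, SE 0.71, adjusted p = 0.949, edgeR). By the study's account the floxed part covers exons 1 and 2 and a shortened transcript remains, so counts summed over the gene do not check the genotype.

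The sequences that set the most similar members apart are shown first, because reads must be assigned between near-identical genes and because the loop decides which protease a serpin can bind. The loop stretch was taken as 22 codons (66 bases) from the hinge glutamate codon in the annotated coding sequence, and it was found in 33 of 35 members. Serpinb3a and Serpinb3b, neighbours on chromosome 1, differed at 4 of 66 loop bases (93.9% identical), and capitals mark the bases that differ between them. The Serpinb3a stretch lies at chr1:107046109-107046174 in the last of its 7 exons and that of Serpinb3b at chr1:107154462-107154527 in the last of 8, both on the minus strand of GRCm38.

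Serpinb3a: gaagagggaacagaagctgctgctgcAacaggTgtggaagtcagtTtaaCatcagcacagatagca
Serpinb3b: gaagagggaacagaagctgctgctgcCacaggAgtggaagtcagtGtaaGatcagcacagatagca

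In the Serpina3 cluster the loops were less alike. Serpina3n is shown plain, and in Serpina3b and Serpina3j capitals mark the bases that differ from Serpina3n, 22 of 66 bases (66.7% identical) and 21 of 66 bases (68.2% identical). The stretches lie on the plus strand of GRCm38, for Serpina3n at chr12:104413442-104413507, for Serpina3b at chr12:104138659-104138724 and for Serpina3j at chr12:104319680-104319745.

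Serpina3n: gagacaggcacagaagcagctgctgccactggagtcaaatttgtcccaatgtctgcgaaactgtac
Serpina3b: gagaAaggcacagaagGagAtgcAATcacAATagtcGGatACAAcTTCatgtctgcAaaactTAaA
Serpina3j: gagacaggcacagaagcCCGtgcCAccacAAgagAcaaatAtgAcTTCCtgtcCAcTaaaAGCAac

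Among the other cluster members with a loop, Serpina3i was the most like Serpina3n, with 15 differing bases (77.3% identical), and Serpina3c and Serpina3f the least, with 24 each. How far reads can be told apart was measured by cutting each gene's transcripts into stretches of 75 bases and counting the percentage found in another gene as well. This share was 0.15% for Serpina3b, 0.144% for Serpina3j, 8.09% for Serpinb3a (nearly all with Gm8080) and 2.28% for Serpinb3b (mainly with Serpinb3c). It was larger for Serpina3h, at 11.0%, mostly with Serpina3g, and the annotated spans of Serpina3f and Serpina3g overlap, so the counts of Serpina3f, Serpina3g, Serpina3h and Serpina3i are uncertain. Serpinc1 shared 32.6% with the overlapping gene Zbtb37, Serpinb6a shared 22% with its neighbours including Nqo2, and Serpinb2 and Serpinb10 shared 9.00% and 6.06% with each other.

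Per length, clade b genes made up most of the serpin RNA of these samples. On the RPKM scale (CPM per kilobase of exon), clade b held 51.6 to 78.3% of the summed serpin level of WT mice and 64.7 to 80.1% of that of Pparg-/-epi mice. The Serpina3 cluster held 7.27 to 25.4% in the WT mice and 6.20 to 9.51% in the Pparg-/-epi mice. The order of the levels ran from Serpinb5, Serpinb7, Serpinb2, Serpina12 and Serpinb8 at the top to Serpinc1, Serpini1 and Serpind1 at the bottom.

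**Figure D1:**
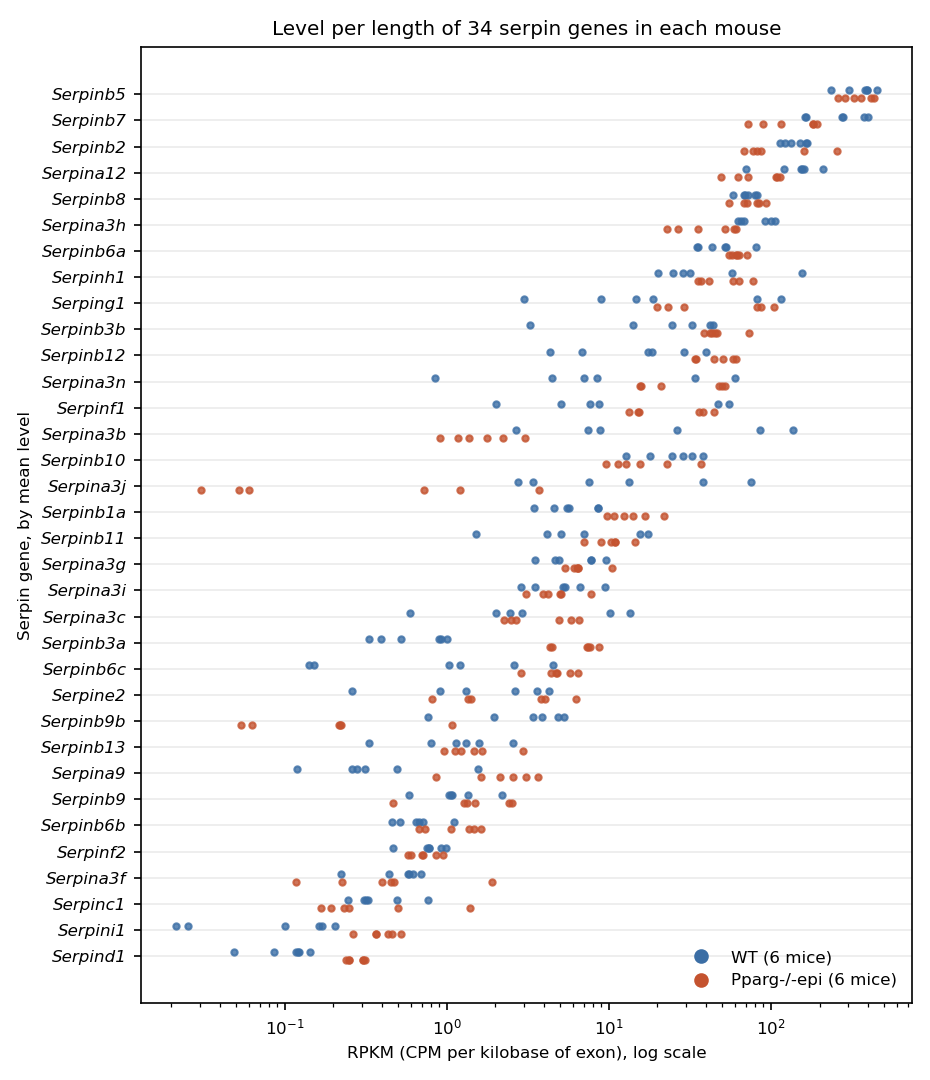
RPKM of 34 of the 35 serpin genes in each mouse on a log scale, ordered by mean level, with 1 point per mouse for WT (blue, 6 mice) and Pparg-/-epi (red, 6 mice). Serpinb5 leads at a mean of 360 RPKM in WT mice and 347 RPKM in Pparg-/-epi mice, and Serpind1 is last at 0.107 and 0.276 RPKM.

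Serpinb5, which encodes maspin, a serpin named as a mammary tumour suppressor, was at 607, 991 and 1160 CPM in WT mice and 668, 877 and 1114 CPM in Pparg-/-epi mice (lowest, median and highest of 6). The groups overlapped almost completely. Its mean level was 360 RPKM ± 76.7 (SD, n = 6) in WT mice and 347 RPKM ± 69.5 (SD, n = 6) in Pparg-/-epi mice (log2 fold change -0.05, SE 0.17, adjusted p = 0.871). Serpinb2, an inhibitor of urokinase that is retained mostly inside keratinocytes, was at 233, 291 and 344 CPM in WT mice and 140, 173 and 523 CPM in Pparg-/-epi mice. Of the Pparg-/-epi mice, replicates 10 and 12, the only males of that group, were high and the other 4 lay below the lowest WT mouse. The log2 fold change of Serpinb2 was -0.22 (SE 0.30, adjusted p = 0.676), and among female mice only it was -0.77 (adjusted p = 0.0409). Serpinb8, an inhibitor of furin, was the steadiest member, with an SD between mice of the same group of 0.23 on the log2 scale and a log2 fold change of 0.08 (SE 0.13).

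Genotype was compared with edgeR's quasi-likelihood test over all 14533 genes, and altered genes were those with an adjusted p under 0.05 whose log2 fold change was at least 0.6 in either direction. Every adjusted p given is from this test unless another is named. Of the 35 members, 11 (31.4%) were altered, where 10.3% of all listed genes were. In Pparg-/-epi mice 6 members were higher, against 5.19% of all genes, and 5 members were lower, against 5.08% of all genes. The 6 mice of a group all lay on 1 side of the other group in 6 members, where this held for 7.90% of all genes. The median log2 fold change was 0.29 over the members and -0.01 over all genes. Because a gene entered the deposited table with over 0.5 CPM in at least 6 mice, a gene that reaches that level in 1 group only must differ. This applies to Serpind1, which passed in 0 WT and 6 Pparg-/-epi mice. Most passing mice were also in 1 group for Serpina9 and Serpini1 (2 WT and 6 Pparg-/-epi mice each), Serpinb9b (6 and 1) and Serpina3j (6 and 3). Of the 25 members over 0.5 CPM in every mouse, 5 (20%) were altered, 2 higher and 3 lower. The 10.3% of all listed genes is not limited in this way. WT replicates 1 and 2 had the highest fibroblast, endothelial, smooth muscle and sebocyte marker sums of their group. They were picked after their values were seen. Without them 18 members were altered (12 higher, 6 lower, with all 11 of the full set among them), and so were 20.4% of all genes. No Pparg-/-epi mouse was left out in that fit, although replicates 7, 8 and 9 had the highest endothelial and smooth muscle sums of their group.

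**Figure D2:**
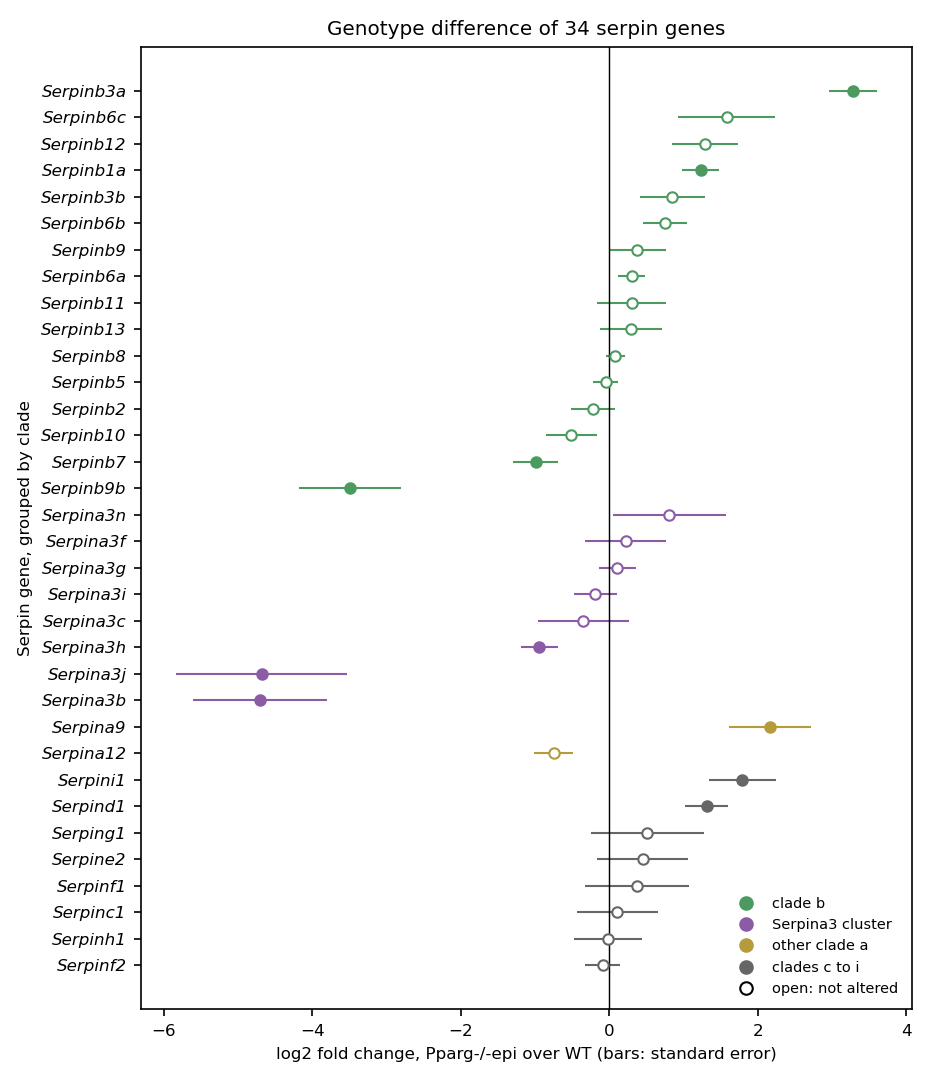
Log2 fold change (Pparg-/-epi over WT) of 34 of the 35 serpin genes, grouped and coloured by clade, with bars for the standard error and filled points for altered genes. Clade b spans -3.49 (Serpinb9b) to 3.28 (Serpinb3a), while the 3 altered genes of the Serpina3 cluster are all lower, down to -4.70 for Serpina3b.

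The clade b members lie in a pair of clusters, 10 genes over 748 kilobases of chromosome 1 and 6 genes over 1161 kilobases of chromosome 13. Of the 16 genes, 4 (25.0%, against 10.3% of all genes) were altered, 2 higher and 2 lower, with a median log2 fold change of 0.30. On chromosome 1 the altered genes were Serpinb3a and Serpinb7, 2 of 10, and on chromosome 13 they were Serpinb1a and Serpinb9b, 2 of 6. The altered genes of either cluster thus went in opposite directions.

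Serpinb3a had the largest rise of the family. It is a mouse counterpart of the human squamous cell carcinoma antigens SERPINB3 and SERPINB4, which inhibit cysteine and serine proteases. It was at 0.538, 1.16 and 1.64 CPM in WT mice (8 to 26 counts) and at 7.04, 12.0 and 14.1 CPM in Pparg-/-epi mice (81 to 233 counts). The groups did not overlap, and Pparg-/-epi replicates 11 and 12 were the lowest of their group. The log2 fold change was 3.28 (SE 0.32, adjusted p = 0.000111), and it ranged from 3.14 to 3.43 when any 1 mouse was left out.

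Serpinb3b, its neighbour with a nearly identical loop, was not altered, and per length its mean level in WT mice was 26.8 RPKM against 0.679 RPKM for Serpinb3a. Serpinb3b was at 5.36, 46.8 and 71.5 CPM in WT mice and at 63.4, 72.3 and 120 CPM in Pparg-/-epi mice, with WT replicate 2 far below the other mice. Its log2 fold change was 0.85 (SE 0.44, adjusted p = 0.224). The log2 ratio of the CPM of Serpinb3a to that of Serpinb3b within a mouse, to which the gene lengths add the same constant in both groups, rose from -5.03 ± 1.11 (SD, n = 6) in WT mice to -2.88 ± 0.48 (SD, n = 6) in Pparg-/-epi mice (exact permutation test, two-sided, p = 0.00866, adjusted p = 0.0180 over the 5 pairs of clade b genes that share a number). This ratio takes in the rise of Serpinb3a already given and is not separate support for it. The 250 bases upstream of the start sites of these neighbours were closely related as well, with 211 identical and 15 different bases and 48 columns of gaps (93.4% identical outside gaps). They are printed in RefSeq's version (GRCm38.p6), chr1:107052304-107052553 for Serpinb3a and chr1:107161115-107161364 for Serpinb3b, both on the minus strand, with capitals at bases that differ or have no partner in the other gene.

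Serpinb3a: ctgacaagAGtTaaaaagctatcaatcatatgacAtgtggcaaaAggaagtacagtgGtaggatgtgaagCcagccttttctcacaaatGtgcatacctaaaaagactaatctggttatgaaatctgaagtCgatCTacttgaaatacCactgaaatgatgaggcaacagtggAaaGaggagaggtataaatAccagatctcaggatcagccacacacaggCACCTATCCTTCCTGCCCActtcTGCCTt
Serpinb3b: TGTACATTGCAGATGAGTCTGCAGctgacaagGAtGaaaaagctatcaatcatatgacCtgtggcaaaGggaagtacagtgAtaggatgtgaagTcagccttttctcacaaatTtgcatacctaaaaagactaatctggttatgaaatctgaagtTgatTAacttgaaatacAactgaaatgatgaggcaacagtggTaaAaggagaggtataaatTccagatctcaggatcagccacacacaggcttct

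Serpinb7 encodes megsin, and loss of its human counterpart causes a hereditary thickening of the skin of palms and soles. It was at 307, 523 and 756 CPM in WT mice and at 137, 281 and 363 CPM in Pparg-/-epi mice. WT replicates 1 and 2, at the low end of their group, lay within the range of the Pparg-/-epi mice. This amounted to a log2 fold change of -0.99 (SE 0.30, adjusted p = 0.0406), and the adjusted p passed 0.05 when any of 7 mice was left out (WT replicates 3, 4, 5 or 6, or Pparg-/-epi replicates 7, 8 or 9), with log2 fold changes of -1.12 to -0.85 over the 12 such fits. As the second most abundant serpin per length, Serpinb7 stood at 276 RPKM ± 101 (SD, n = 6) in WT mice and 139 RPKM ± 52.9 (SD, n = 6) in Pparg-/-epi mice.

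The remaining chromosome 1 genes were not altered. Serpinb12, a trypsin inhibitor of epithelia, came closest, at 7.54, 31.3 and 69.6 CPM in WT mice and 59.2, 82.8 and 106 CPM in Pparg-/-epi mice. Only WT replicate 1 reached the range of the Pparg-/-epi mice. Its log2 fold change was 1.29 (SE 0.44, adjusted p = 0.0647), and without WT replicate 1 it was 1.63 (adjusted p = 0.0213), while without WT replicate 2 it was 1.06 (adjusted p = 0.0461). Serpinb13, an inhibitor of lysosomal cathepsins (0.29), Serpinb11 (0.30), Serpinb8, Serpinb5, Serpinb2 and Serpinb10 (-0.51) had log2 fold changes between -0.51 and 0.30. In chromosome order from Serpinb5 to Serpinb8, the altered genes Serpinb3a and Serpinb7 were thus flanked by genes that did not pass the test.

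On chromosome 13, Serpinb1a, an inhibitor of the neutrophil proteases elastase and cathepsin G, was at 6.61, 10.7 and 16.5 CPM in WT mice and at 18.6, 25.5 and 41.8 CPM in Pparg-/-epi mice. The groups did not overlap, and Pparg-/-epi replicates 11 and 12 were the highest. Serpinb1a had a log2 fold change of 1.23 (SE 0.25, adjusted p = 0.00651). Of 6 neutrophil markers, 2 were listed (Csf3r and Cxcr2), and Ly6g, Mpo, Retnlg and Ngp were not. The listed pair summed to 0.944 to 4.92 CPM in the WT mice and 9.71 to 17.0 CPM in the Pparg-/-epi mice, and its part in the Serpinb1a result was not tested.

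Serpinb9b fell the most of clade b. It is a close relative of Serpinb9, the inhibitor that protects cells from granzyme B. Serpinb9b was at 1.47, 7.02 and 10.2 CPM in WT mice (23 to 139 counts) and at 0.104, 0.420 and 2.08 CPM in Pparg-/-epi mice (2 to 23 counts). Pparg-/-epi replicate 11 was the only mouse of its group above 0.5 CPM and passed the lowest WT mouse, replicate 1. Its log2 fold change was -3.49 (SE 0.69, adjusted p = 0.00520), and without Pparg-/-epi replicate 11 it was -4.44.

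Serpinb9 was at 1.98, 3.64 and 7.43 CPM in WT mice and 1.58, 4.80 and 8.55 CPM in Pparg-/-epi mice. The groups overlapped, and the log2 fold change was 0.38 (SE 0.38, adjusted p = 0.559). The log2 ratio of Serpinb9 to Serpinb9b went from -0.51 ± 1.33 (SD, n = 6) in WT mice to 3.73 ± 2.00 (SD, n = 6) in Pparg-/-epi mice (exact permutation test, two-sided, p = 0.00433, adjusted p = 0.0180). This ratio repeats the fall of Serpinb9b, rests on its low counts and is not separate support for it.

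Serpinb6a, an inhibitor of trypsin-like proteases and cathepsin G, was the most abundant chromosome 13 gene per length. It was at 66.5, 90.5 and 154 CPM in WT mice and 105, 116 and 134 CPM in Pparg-/-epi mice. The Pparg-/-epi mice lay inside the WT range, and the log2 fold change was 0.30 (SE 0.18, adjusted p = 0.297). Its relatives Serpinb6b (0.75, adjusted p = 0.111) and Serpinb6c (1.58, adjusted p = 0.123) were not altered. Serpinb6c had 3 counts in each of WT replicates 4 and 6 and up to 94 counts in the other WT mice, and its log2 fold change was 2.23 (adjusted p = 0.0308) without WT replicate 1. The log2 ratio of Serpinb6a to Serpinb6c fell from 6.37 ± 1.74 (SD, n = 6) to 4.23 ± 0.45 (SD, n = 6) (exact permutation test, two-sided, p = 0.0108, adjusted p = 0.0180). Its highest values, up to 8.47, came from WT replicates 4 and 6 with their 3 Serpinb6c counts. The ratio rests in part on these low counts and is not separate support for a change of either gene. The ratios of Serpinb6a to Serpinb6b and of Serpinb6b to Serpinb6c differed between the groups by -0.37 and -1.77, with adjusted p = 0.171 and 0.0893 in the same exact permutation test.

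**Figure D3:**
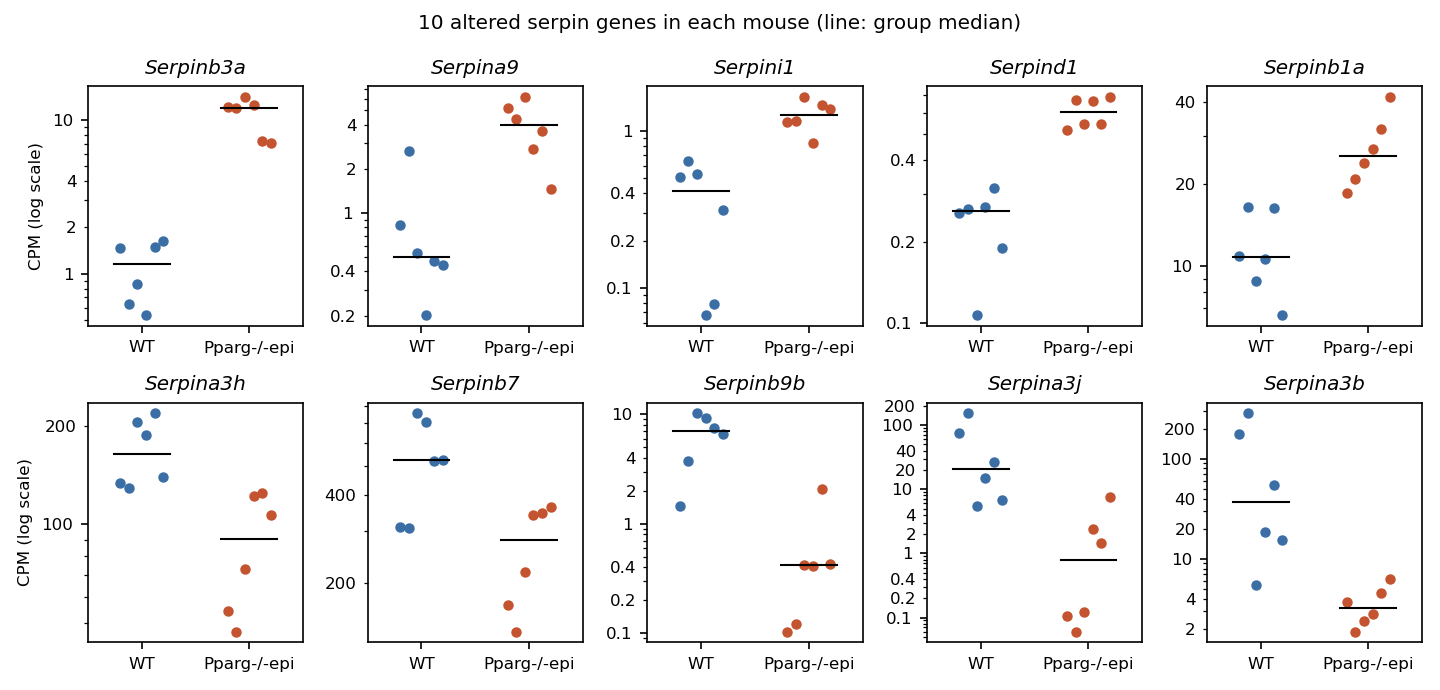
CPM of 10 of the 11 altered serpin genes on log scales, 1 point per mouse and a line at the group median, for WT (blue) and Pparg-/-epi (red). The groups are apart in Serpinb3a, Serpini1, Serpind1, Serpinb1a and Serpina3h, and they overlap in Serpina9, Serpinb7, Serpinb9b, Serpina3j and Serpina3b.

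The Serpina3 cluster covers 286 kilobases of chromosome 12 and corresponds to the single antichymotrypsin gene of humans, which is expanded in rodents. Of its 8 members, 3 (37.5%, against 10.3% of all genes) were altered, 0 higher and 3 lower (5.08% of all genes were lower), with a median log2 fold change of -0.27. Serpina3b and Serpina3j fell the most of all serpins, and both varied widely among WT mice. Serpina3b was at 5.54, 36.6 and 284 CPM in WT mice and at 1.88, 3.26 and 6.27 CPM in Pparg-/-epi mice. WT replicates 2 and 1 were the highest at 284 and 178 CPM, and WT replicate 3 lay inside the Pparg-/-epi range. The log2 fold change was -4.70 (SE 0.90, adjusted p = 0.00463), and without WT replicate 2 it was -3.94.

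Serpina3j was at 5.54, 20.9 and 152 CPM in WT mice and at 0.0606, 0.784 and 7.47 CPM in Pparg-/-epi mice. Pparg-/-epi replicates 7, 8 and 9 had 2, 1 and 2 counts, at or below the limit of 3 counts, while replicates 10, 11 and 12 had 29, 16 and 87 counts. The former are the 3 Pparg-/-epi mice with the lower numbers in their names and are all female. This amounted to a log2 fold change of -4.68 (SE 1.15, adjusted p = 0.0160), and without Pparg-/-epi replicate 12 it was -5.97.

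The sebocyte marker list moved with both genes. Of its 5 markers 4 were listed (Awat1, Awat2, Scd3 and Fa2h) and Mc5r was not, and all 4 were altered and lower. Their summed level was 15.3 to 694 CPM in the WT mice and 1.12 to 3.16 CPM in the Pparg-/-epi mice. Among WT mice the order of the sum, from replicate 2 through 1, 5, 4 and 6 to replicate 3, was also the order of Serpina3b and of Serpina3j. Among Pparg-/-epi mice Serpina3j was at 0.0606 CPM in replicate 8 and 7.47 CPM in replicate 12, while the marker sum lay at 1.88 and 1.12 CPM. The part of sebocyte RNA in the fall of the genes was not tested.

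**Figure D4:**
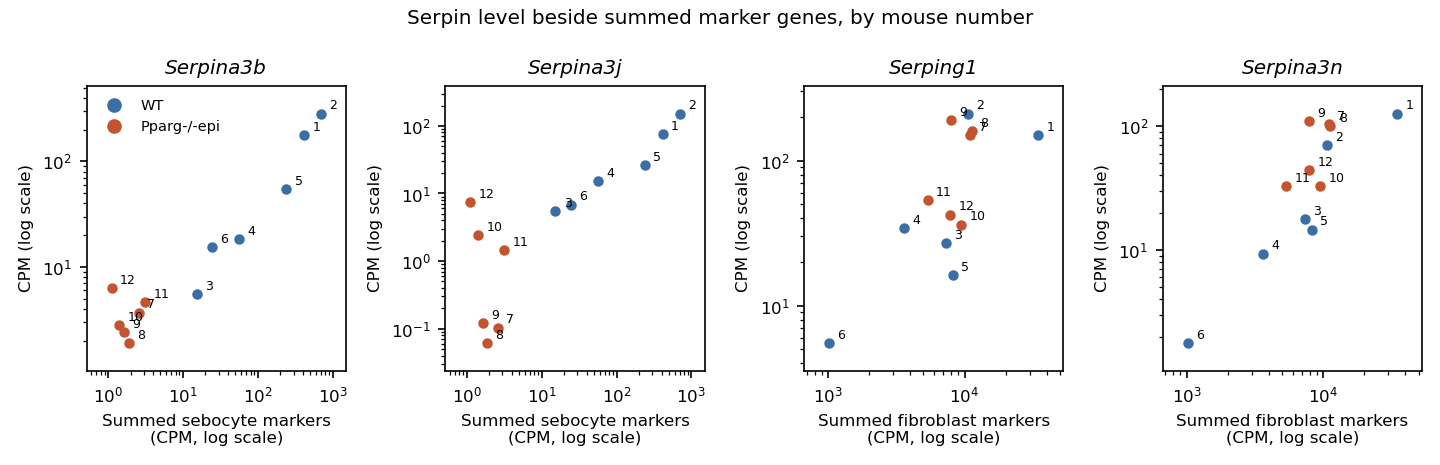
CPM of Serpina3b and Serpina3j against the summed sebocyte markers, and of Serping1 and Serpina3n against the summed fibroblast markers, all on log scales, with 1 numbered point per mouse for WT (blue) and Pparg-/-epi (red). WT mice follow the sebocyte sum from 15.3 to 694 CPM in Serpina3b and Serpina3j, and WT replicate 6, lowest for fibroblast markers at 1022 CPM, is also the lowest for Serping1 and Serpina3n.

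Serpina3h, the most abundant of the cluster per length, was at 129, 164 and 218 CPM in WT mice and 47.2, 90.1 and 125 CPM in Pparg-/-epi mice. The groups did not overlap, with replicates 7, 8 and 9 the lowest of the Pparg-/-epi mice. Serpina3h had a log2 fold change of -0.94 (SE 0.25, adjusted p = 0.0249). The adjusted p lay between 0.0527 and 0.0546 when WT replicate 3, 4 or 5 or Pparg-/-epi replicate 9 was left out.

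The other 5 cluster members did not pass the test. Serpina3n, an inhibitor of granzyme B and elastase that rises in acute-phase responses, was at 1.76, 16.1 and 126 CPM in WT mice and 32.5, 72.2 and 109 CPM in Pparg-/-epi mice. WT replicates 1 and 2 were high and the 4 remaining WT mice lay below all Pparg-/-epi mice. Its log2 fold change was 0.81 (SE 0.76, adjusted p = 0.526), and without WT replicates 1 and 2 it was 2.71 (adjusted p = 0.00613). That fit dropped the highest mice of the WT group only. Serpina3g, an interferon-inducible inhibitor of lysosomal cathepsins, stood at 12.7 CPM in WT mice and 12.9 CPM in Pparg-/-epi mice by the median, with a log2 fold change of 0.11 (SE 0.25). Serpina3f (0.22), Serpina3i (-0.19) and Serpina3c (-0.35) had adjusted p of 0.838, 0.717 and 0.756.

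Serpina12 and Serpina9 lie next to the cluster on chromosome 12. Serpina12 encodes vaspin, an inhibitor of the epidermal protease kallikrein 7, and was the fourth serpin in level per length. It was at 261, 568 and 771 CPM in WT mice and 181, 333 and 420 CPM in Pparg-/-epi mice. WT replicate 2 was the lowest of its group and lay within the range of Pparg-/-epi mice. The log2 fold change was -0.75 (SE 0.26, adjusted p = 0.0712), and without WT replicate 2 it was -0.91 (adjusted p = 0.0120).

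Serpina9, known from germinal centre B cells, was at 0.202, 0.503 and 2.65 CPM in WT mice (3 to 50 counts) and 1.46, 3.99 and 6.18 CPM in Pparg-/-epi mice (17 to 102 counts). WT replicate 2 alone of its group reached the Pparg-/-epi range. This amounted to a log2 fold change of 2.16 (SE 0.55, adjusted p = 0.0196), and it was 2.96 without WT replicate 2 and 1.96 (adjusted p = 0.0514) without Pparg-/-epi replicate 9. It was 1.83 (adjusted p = 0.0660) in a fit that kept mice with lower and higher numbers in their names as separate blocks.

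In clades c to i, Serpini1, which encodes neuroserpin, an inhibitor of Plat, and Serpind1, which encodes heparin cofactor, an inhibitor of thrombin, were altered and higher in Pparg-/-epi mice, and they were the scarcest members. Serpini1 was at 0.0672, 0.413 and 0.637 CPM in WT mice (1 to 12 counts) and 0.832, 1.26 and 1.64 CPM in Pparg-/-epi mice (10 to 27 counts), and its log2 fold change was 1.79 (SE 0.45, adjusted p = 0.0180). Serpind1 was at 0.107, 0.261 and 0.316 CPM in WT mice (1 to 5 counts) and 0.520, 0.605 and 0.687 CPM in Pparg-/-epi mice (6 to 11 counts), and its log2 fold change was 1.31 (SE 0.29, adjusted p = 0.00987). In neither gene did the groups overlap, but the levels rest on few reads.

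Serping1, Serpinf1, Serpinh1, Serpine2, Serpinf2 and Serpinc1 did not pass the test. Serping1, the inhibitor of the first complement component, was at 5.48 to 211 CPM in the WT mice and 36.2 to 190 CPM in the Pparg-/-epi mice. Serpinf1, an anti-angiogenic serpin that inhibits no protease, was at 3.02 to 82.3 CPM and 20 to 66.3 CPM, and Serpinh1, a collagen chaperone, at 49.4 to 379 CPM and 86.8 to 189 CPM. In all 3 genes WT replicates 1 and 2 and Pparg-/-epi replicates 7, 8 and 9 were the highest of their groups, and their log2 fold changes were 0.51, 0.37 and -0.02. The summed endothelial markers (all 5 listed) were highest in the same mice, at 74.8 and 128 CPM in WT replicates 1 and 2 against at most 33.7 CPM in the other WT mice, and at 156 to 196 CPM in Pparg-/-epi replicates 7, 8 and 9 against at most 70.0 CPM in the rest of their group. So were the summed smooth muscle markers (all 3 listed), at 405 and 388 CPM against at most 65.9 CPM, and at 187 to 312 CPM against at most 81.9 CPM. Fibroblast markers were highest in WT replicates 1 and 2, at 34614 and 10584 CPM, but in Pparg-/-epi mice replicate 10 (9461 CPM) lay above replicate 9 (7925 CPM). The RNA integrity number was 7.4 and 8.6 in WT replicates 1 and 2 and 5.9 to 7.1 in the other WT mice. The part of these cell types in the levels was not tested. RNA integrity, age and the number in the mouse names were each added as a term in alternative fits. Over all alternatives the log2 fold change ran from -0.41 to 2.34 for Serping1, from -0.16 to 2.20 for Serpinf1 and from -0.27 to 0.97 for Serpinh1. Without WT replicates 1 and 2, and with all Pparg-/-epi mice kept, Serping1 was at 2.34 (adjusted p = 0.0147), Serpinf1 at 2.2 (adjusted p = 0.00581) and Serpinh1 at 0.97 (adjusted p = 0.0099). Only the WT group lost its highest mice in that fit, so a rise of these values was fixed by the choice of mice. Serpine2, an inhibitor of thrombin and urokinase (0.45), Serpinf2, the plasmin inhibitor (-0.09), and Serpinc1, antithrombin (0.11), had adjusted p of 0.681, 0.841 and 0.918. Hepatocyte markers (Alb, Apoa1, Apoa2 and Ttr), which would mark liver as a source of plasma serpins, were not among the listed genes.

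The spread between mice of a group was described by the SD on the log2 scale, which had a median of 0.75 over the 35 members, 0.62 over clade b, 1.06 over the Serpina3 cluster and 0.30 over all listed genes. In 8 members it was above 1.17, the 95th percentile of all genes, with Serpina3j (2.04), Serpina3n (1.64) and Serpina3b (1.60) highest.

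The mouse names carry a series number, which the labels do not explain and which was split into lower and higher numbers as a possible batch. The lower numbers held 1 WT and 3 Pparg-/-epi mice, and with a single WT mouse were not compared on their own, while the higher numbers held 5 WT and 3 Pparg-/-epi mice. Among these 8 mice all 11 altered members kept their direction, and 3 passed the test: Serpinb3a (log2 fold change 3.08, adjusted p = 0.00806), Serpinb1a (1.5, adjusted p = 0.0298) and Serpinb9b (-2.95, adjusted p = 0.0367). The share of all genes altered in that comparison was 3.65%. The log2 fold changes that did not pass were 1.86 for Serpini1, 1.56 for Serpina9, 1.39 for Serpind1, -0.59 for Serpina3h, -0.70 for Serpinb7, -3.44 for Serpina3j and -4.04 for Serpina3b, with adjusted p from 0.131 to 0.284.

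Both sexes were present in both groups, and a genotype by sex interaction passed an adjusted p of 0.05 in 0 of 35 members with edgeR's quasi-likelihood test and in 0 with its likelihood ratio test. At an unadjusted p under 0.05 the counts were 4 and 5 members, where 5.1% and 4.45% of all genes were at that level. The 4 members were Serpinb2 (interaction of -1.22 on the log2 scale, SE 0.28), Serpinb6c (3.18), Serpinb12 (1.66) and Serpina3j (-4.43), and each had an adjusted p of 0.895 in edgeR. Sex was largely confounded with name number. The 3 Pparg-/-epi mice with lower numbers were female, and both males of that group had higher numbers. All WT females had higher numbers. The interaction and the fit on female mice only therefore cannot fully separate sex from name number.

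Upstream sequence was available from RefSeq (GRCm38.p6) for 29 of the 35 members. The 250 bases before each start site were searched on both strands for AP-1 letters, TGANTCA, which is the same on both strands. N stands for any base, so this is a permissive form of the motif. AP-1 is a transcription factor of epidermal differentiation and stress. The letters were present upstream of 7 of the 9 chromosome 1 clade b genes with a listed promoter (77.8%), of 0 of the 20 other members, and in 6.75% of all 32851 promoters. The matches are shown with 10 bases on either side and capitals for the motif, since they are a sequence feature that the neighbouring genes hold in common.

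Serpinb5 (chr1:106861025-106861051): aagttgggccTGAATCAtgtcttccaa
Serpinb12 (chr1:106934394-106934420): aaaaacaatcTGATTCAcgatcattat
Serpinb11 (chr1:107362123-107362149): aagtatagtgTGATTCAgaaagcacag
Serpinb11 (chr1:107362228-107362254): ggtgaagagcTGAATCAtaacaacaca
Serpinb7 (chr1:107422634-107422660): agggagtgtcTGAGTCAgaggctttat
Serpinb2 (chr1:107511319-107511345): agtaaaatgtTGAATCAtacaaagaat
Serpinb10 (chr1:107528939-107528965): cttgtgaaagTGAATCAagggtggggc
Serpinb8 (chr1:107589973-107589999): gtgggaagtgTGAGTCAcagagtgttc

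All 8 are printed on the plus strand, which is that of their genes, and the motif has no direction of its own. Only those of Serpinb7 and Serpinb8 read TGAGTCA, and the others read TGAATCA or TGATTCA. Whether AP-1 binds any of them was not tested. The genes with the letters included Serpinb7, which fell, and Serpinb5, Serpinb12, Serpinb11, Serpinb2, Serpinb10 and Serpinb8, which were not altered. Serpinb3a and Serpinb3b, printed above, had no match in these windows. Serpinb2 and Serpinb12 have a second listed start site, and the position is given from the first.

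**Figure D5:**
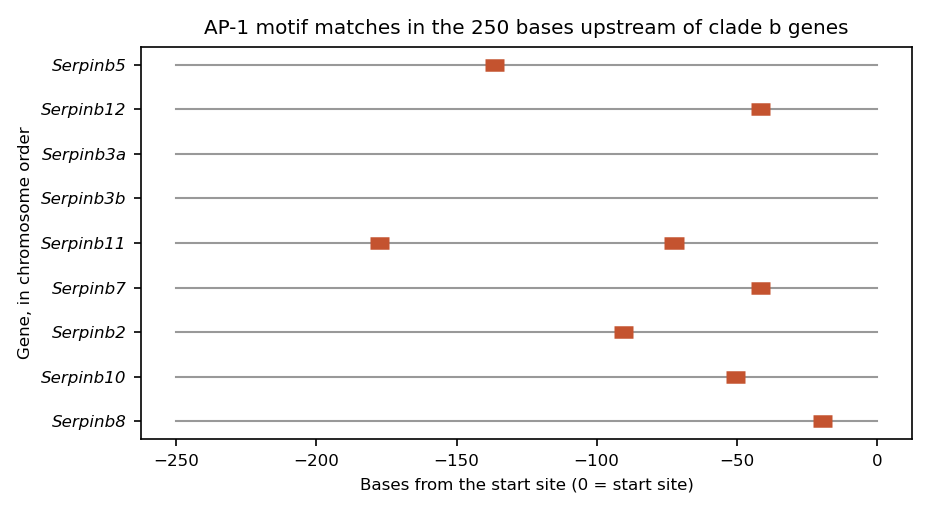
Positions of the AP-1 letters (red boxes) in the 250 bases upstream of the 9 chromosome 1 clade b genes with a listed promoter, in chromosome order, with distance from the start site in bases. The matches begin between 23 bases (Serpinb8) and 181 bases (Serpinb11) before the start, and Serpinb3a and Serpinb3b have none.

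Other motifs were found upstream of fewer members or at shares closer to those of all promoters. STAT letters, TTCNNNGAA, were upstream of 5 of the 29 members (17.2%, against 7.02% of all promoters), namely Serpina3f, Serpina3g, Serpina3i, Serpinb2 and Serpinb6a. The letters AGGTCA, which nuclear receptors bind, were upstream of 4 (13.8%, against 14.0%), namely Serpinb12, Serpinb3b, Serpinf1 and Serpinf2. Their direct repeat with 1 spacer base (DR1), the form that PPAR and its partner bind, was upstream of 0 members and of 0.0335% of all promoters. TATAAA was upstream of 8 (27.6%, against 12.4%), among them Serpinb3a, Serpinb3b and Serpina3b, and NF-kB letters upstream of 3 (10.3%, against 7.25%).

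The proteases and inhibitors that work beside the serpins were described by lists, whose counts stand against 10.3% of all genes altered, 5.19% higher and 5.08% lower. Of 22 listed epidermal serine proteases, 8 (36.4%) were higher and 0 lower, among them the kallikreins Klk6 (log2 fold change 2.99, adjusted p = 0.00291) and Klk12 (2.59, adjusted p = 0.0371) and the transmembrane proteases Tmprss11b (2.76) and Tmprss11d (2.33). Klk12, Tmprss11b and Tmprss11d were scarce, with medians of 0.0731, 0.0928 and 0.0869 CPM in WT mice and 2.11, 1.15 and 0.862 CPM in Pparg-/-epi mice. In these genes every Pparg-/-epi mouse lay above 0.5 CPM, the level needed in at least 6 mice for a gene to be listed. They thus entered the table mainly through the group where they are high, and their rise was largely fixed by that filter. The 36.4% includes them. Klk7, the target of Serpina12, had a mean of 1772 CPM in WT mice and was not altered (0.44, adjusted p = 0.157). Of 11 lysosomal cysteine proteases, 2 (18.2%) were altered, Ctsc (0.97), which activates granule proteases, and Ctso (-0.82). Of 18 listed genes of the plasminogen and clotting system, where Serpind1, Serpinf2 and Serpinc1 act, 4 (22.2%) were higher: F7 (2.25), F10 (2.13), Procr (1.33) and Thbd (1.28). F7 and F10 were scarce as well, with medians of 0.205 and 0.318 CPM in WT mice and 1.15 and 2.06 CPM in Pparg-/-epi mice. They too entered the table mainly through the Pparg-/-epi mice, so the same limit holds for them and for the 22.2%. Plat, the target of Serpini1, and Plau, the urokinase that Serpinb2 and Serpine2 inhibit, were not altered, with adjusted p = 0.231 and 0.904.

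Of 8 listed genes of granule proteases and perforin (Prf1, not a protease), 6 (75%) were higher. They included the granzymes Gzmc (2.08) and Gzmb (1.71) and the mast cell proteases Cpa3 (1.68) and Tpsb2 (1.46). Gzmb was scarce, with medians of 0.475 CPM in WT mice and 1.74 CPM in Pparg-/-epi mice. Prf1 (-0.82) and the granzyme Gzmm (-0.31) had negative log2 fold changes and were not altered. Of the 8 listed genes, 4 also belong to the mast cell marker list, of which all 5 genes were higher. The summed level of that list was 19.3 to 90.2 CPM in the WT mice and 129 to 229 CPM in the Pparg-/-epi mice. Elane, Ctsg and Prtn3, the neutrophil proteases that Serpinb1a inhibits, were not among the listed genes. Of 20 listed protease inhibitors outside the family, 4 (20%) were altered: Slpi (2.51), Timp1 (1.51) and Cstb (1.34) were higher and Wfdc3 (-3.43) was lower.

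Response lists that touch Serpina3g and Serpina3n were counted too, against the same shares of all genes. Of 29 interferon-stimulated genes, 6 (20.7%) were higher, led by Cxcl9 (2.18), Cxcl10 (2.07), Isg15 (1.95) and Oas1a (1.69), while Serpina3g stood at a log2 fold change of 0.11. Of 17 listed acute-phase genes, 2 (11.8%) were altered, close to the 10.3% of all genes, namely Lcn2 (2.80) higher and Orm2 (-2.53) lower. Stress keratins (Krt6a, Krt16 and Krt17 of 4) were higher, and their summed level was 457 to 1750 CPM in the WT mice and 2858 to 5410 CPM in the Pparg-/-epi mice.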

How the data were processed

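Reads from 12 libraries were aligned by the authors to mm10 with STAR 2.5.2b and counted per gene with featureCounts (Subread 1.5.1), per the submitters' processing notes. The authors deposited these counts without normalization. The table held 14533 genes after 2800 blank rows were dropped, each with over 0.5 CPM in at least 6 mice. Whether strand was used in counting is not given in the sources used here.

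Counts were normalized by TMM and compared between genotypes with edgeR 4.0.16 (R 4.3.3), quasi-likelihood test, genotype as the only term, Benjamini-Hochberg adjustment over all genes. The likelihood ratio test named in the study's methods and DESeq2 1.42.0 were alternatives. CPM values are TMM-scaled, and RPKM divides them by exon length. The code was tested on simulated data. P-values measure the spread between separate mice.

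Members, gene lists and tests were chosen with earlier results of these data known. Values by mouse are given for altered members, the 3 most abundant per length and the most abundant of each cluster. Of the members, 1 is counted in the family but not reported here by name. From each list up to 4 altered genes with the largest change are named. The comparisons of higher name numbers only and without WT replicates 1 and 2 were added after values were seen. So were the 5 ratios of clade b pairs (exact permutation tests over all splits). The genes Plat, Plau, Klk7, Serpinb3b, Serpinb9, Serpinb12, Serpina3n and Serpina12 were also added after values were seen. Motifs and loops were located in RefSeq and GENCODE M21 sequence. Figures were drawn with matplotlib 3.10.9 (Python 3.11.15).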

Additional observations from a re-analysis of the deposited data

Results flagged for a closer look

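A single mouse stood far from the others of its group, by the gap to its neighbour over the group's range on the log2 scale, in 3 of 70 groups of 6 mice, where chance gives about 1 in 20. Serpinb3b was at 120 CPM in Pparg-/-epi replicate 10 against 63.4 to 75.8 CPM in the other Pparg-/-epi mice (gap 0.718 of the range). Serpina3g was at 21.2 CPM in Pparg-/-epi replicate 9 against 10.8 to 13.0 CPM (gap 0.724). The summed interferon-stimulated genes of that mouse were also the highest of all, at 1960 CPM against 670 to 1095 CPM in the other Pparg-/-epi mice, and their part was not tested. Serpinf2 was at 1.02 CPM in WT replicate 1 against 1.66 to 2.18 CPM (gap 0.636).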

How the results depend on the processing

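The main count of altered members was 11. It was 6 among female mice only, where 4.48% of all genes were altered and 3 of the 6 were among the 11 (the others were Serpinb12, Serpinb6c and Serpinb2), and 3 among mice with higher numbers in their names only (an alternative chosen after seeing the data), where the Serpina3 cluster fell from 3 to 0, while leaving out single mice gave 8 to 13 members, 3 to 6 of clade b and 2 to 3 of the Serpina3 cluster. Without WT replicates 1 and 2, also chosen after seeing the data and by their marker sums, it was 18, with 20.4% of all genes altered. No Pparg-/-epi mouse was left out in that fit. Gained were Serpina3n, Serping1, Serpinf1, Serpinb6c, Serpinb12, Serpina12 and Serpinh1, the last at 0.97 on the log2 scale where the full set gave -0.02. The cause was not tested. With the remaining alternatives (likelihood ratio test, DESeq2, RLE size factors, total counts, a mean of at least 1 CPM, sex, RIN or age as a covariate, blocks of lower and higher name numbers) it was 9 to 13. With 1 of the 12 mice left out at a time, 8 of the 11 altered members stayed altered in every fit, and the exceptions were Serpinb7, Serpina3h and Serpina9. No member that was altered changed sign under any alternative run. Over all members and alternatives 787 of 837 values stayed on their side of the threshold, 30 calls were lost, 19 were gained, and Serpinh1 was called with the opposite sign. Signs changed in 38 values of 14 members, none of them altered with all mice. Serpinb12 gained a call in 7 alternatives, from 1.06 to 2.31 on the log2 scale, and Serpina12 in 5, from -0.75 to -1. Total counts in place of TMM moved the median of all genes by under 0.01 (from -0.011 to -0.008). Serpind1 and Serpini1 rest on 1 to 27 counts a mouse, near the limit of 3 counts, and fall outside a mean of at least 1 CPM. The study describes the WT mice as sibling controls, but the sample labels do not state which mice were siblings, so no paired analysis was possible. The groups share no replicate number, and a single WT mouse (replicate 2) shares a name number with a Pparg-/-epi mouse (replicate 10).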
